A study of Mus musculus with 2 samples.

Results

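The replication-dependent histone genes were described in mouse ureters at embryonic stage E14.5. They were taken from the arrays by the gene symbol behind each probe's accession, as the genes named Hist1h, Hist2h, Hist3h or Hist4h and their newer names H2ac, H2bc, H3c, H4c and H1f1 to H1f6. The rule found 44 probes for 40 genes among 39429 probes, which stand for 32103 genes or accessions. The RefSeq table used for the names lists 71 entries under these names, so 40 of 71 had a probe. The 71 include the pseudogenes H2bu1-ps, H2ac14, H2ac5-ps and H2af-ps2, which had no probe. Members were chosen by gene name, and the family itself was selected on the log2 ratios of labelled knockout over control of these same arrays. Its counts and ratios are therefore a description of these libraries, and nothing about the family is supported by them.

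These genes encode the core histones H2A, H2B, H3 and H4, which form the nucleosome, and the linker histone H1, which binds the DNA between nucleosomes. They are transcribed mainly in S phase, when newly copied DNA has to be packaged, and most lie in a few clusters where H2A and H2B genes often sit head to head on a shared promoter. Their mRNAs as a rule end in a stem-loop bound by SLBP in place of a poly(A) tail, and some of the genes also give polyadenylated transcripts in differentiating cells. The ureter of this stage is a growing epithelial tube in a mesenchyme that is beginning to form smooth muscle.

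The 2 arrays each held 1 RNA of ureters labelled Tbx2/Tbx3cDKO and 1 control RNA of the NMRI strain in separate colours. The knockouts were Tbx18(cre/+) with Tbx2(fl/fl) and Tbx3(fl/fl), and the controls Tbx18(+/+) with Tbx2(fl/?) and Tbx3(fl/?), so the controls also carried floxed alleles but no Cre, and 1 allele of each T-box gene is unspecified. Cre expressed from the Tbx18 locus acts in the ureteric mesenchyme and not in the urothelium, and the allele occupies 1 copy of Tbx18. In replicate 1, the female pair, the knockout RNA was labelled with AlexaFluor647, and in replicate 2, the male pair, with AlexaFluor555, so sex, dye orientation and array cannot be told apart. The sources used here do not give the number of embryos per RNA. The p-values measure only the spread between these 2 pairs, pooled for the most part across genes. The targeted genes did not both follow the label. Tbx3 fell, with a log2 ratio of -1.09 ± 0.10 (SD, n = 2 pairs, limma adjusted p = 0.000862), and Tbx2 rose, at 0.86 ± 0.12 (limma adjusted p = 0.00236). The sources do not place these probes inside or outside the deleted exons, and outside them a probe checks nothing. Every direction below compares ureters labelled knockout with control ureters.

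The promoters of 9 members are shown first, because the H1 and H2B classes hold the members with the lowest and some of the least changed ratios. Each is the stretch of 160 bases before the annotated start, from RefSeq on build GRCm38.p6, printed 5′ to 3′ on the strand of the gene. Capitals mark every match to TATAAA (the TATA box), CCAAT, ATTTGCAT (the octamer bound by Oct1) and AAACACA (a box of H1 promoters), on either strand, and no 2 matches overlap. The first 3 belong to linker histone genes, with H1f5 at chr13:21780626-21780785 (minus strand), H1f1 at chr13:23763508-23763667 (plus strand) and H1f4 at chr13:23622559-23622718 (minus strand).
H1f5: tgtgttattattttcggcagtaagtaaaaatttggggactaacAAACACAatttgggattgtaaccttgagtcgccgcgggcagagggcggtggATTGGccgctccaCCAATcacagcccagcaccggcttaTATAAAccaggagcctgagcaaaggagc
H1f1: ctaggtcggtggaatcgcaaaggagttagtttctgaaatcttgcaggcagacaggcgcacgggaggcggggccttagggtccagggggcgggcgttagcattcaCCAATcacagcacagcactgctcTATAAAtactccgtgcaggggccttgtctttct
H1f4: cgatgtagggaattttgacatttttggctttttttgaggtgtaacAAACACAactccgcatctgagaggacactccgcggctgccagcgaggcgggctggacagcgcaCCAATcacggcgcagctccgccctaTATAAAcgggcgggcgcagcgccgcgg
The next 4 belong to H2B genes that fell, with H2bc3 at chr13:23746574-23746733, H2bc14 at chr13:21721884-21722043 and H2bc18 at chr3:96269540-96269699 on the plus strand, and H2bc1 at chr13:23934157-23934316 on the minus strand.
H2bc3: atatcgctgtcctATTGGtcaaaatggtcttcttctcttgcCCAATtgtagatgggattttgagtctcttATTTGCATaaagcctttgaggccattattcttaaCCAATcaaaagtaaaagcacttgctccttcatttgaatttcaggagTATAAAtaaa
H2bc14: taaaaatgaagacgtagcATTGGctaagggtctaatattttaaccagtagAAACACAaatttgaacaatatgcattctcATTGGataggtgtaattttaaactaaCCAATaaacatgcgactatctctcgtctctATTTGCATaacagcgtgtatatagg
H2bc18: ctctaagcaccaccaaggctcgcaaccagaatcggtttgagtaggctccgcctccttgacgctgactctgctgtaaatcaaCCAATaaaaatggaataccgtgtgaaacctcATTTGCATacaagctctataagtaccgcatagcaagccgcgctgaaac
H2bc1: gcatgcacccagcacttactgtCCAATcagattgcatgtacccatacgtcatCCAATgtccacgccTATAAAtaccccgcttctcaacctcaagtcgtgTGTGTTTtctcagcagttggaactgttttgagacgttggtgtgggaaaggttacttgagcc
The last belong to H2B genes with ratios near 0, with H2bc22 at chr13:21787328-21787487 (plus strand) and H2bc23 at chr13:21810200-21810359 (minus strand).
H2bc22: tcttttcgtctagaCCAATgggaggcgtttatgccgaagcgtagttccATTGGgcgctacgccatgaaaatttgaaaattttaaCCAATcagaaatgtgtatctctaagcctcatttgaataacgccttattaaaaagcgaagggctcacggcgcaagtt
H2bc23: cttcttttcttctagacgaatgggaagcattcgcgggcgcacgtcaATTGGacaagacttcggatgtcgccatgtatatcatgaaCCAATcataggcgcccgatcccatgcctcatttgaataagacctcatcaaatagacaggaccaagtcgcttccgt
All 3 tested H1 genes had a TATA box close to the start, beginning at position -28 in H1f5, -33 in H1f1 and -27 in H1f4. The AAACACA box began at -117 in H1f5 and -115 in H1f4, and its letters were not in the window of H1f1. The octamer began at -90 in H2bc3, -25 in H2bc14 and -48 in H2bc18, and its letters were not in the printed stretch of H2bc1.

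Over the 250 bases before the start, the table gave 63 promoters for 62 histone genes, 33 of them tested here. The other 5 tested genes, H2bc4, H2bc21, H3c1, H3c7 and H4c14, had no entry. ATTTGCAT was found in 1.6% of all 32851 promoters of the table, in 7 of 17 H2B promoters and 7 of 18 H2A promoters, and in 0 of 6 H1, 0 of 10 H3 and 0 of 12 H4 promoters. Among tested H2B genes it was present in H2bc3, H2bc14, H2bc18, H2bc1 (upstream of the printed stretch) and in 1 of 2 promoters of H2bc6. Its letters were not in the windows of H2bc22 and H2bc23, and H2bc4 and H2bc21 could not be searched. CCAAT was in 33.8% of all promoters, in all 6 H1, 18 H2A and 17 H2B promoters, in 8 of 10 H3 and in 3 of 12 H4 promoters. TATAAA was in 12.4% of all promoters, and in 4 of 6 H1, 7 of 18 H2A, 8 of 17 H2B, 4 of 10 H3 and 6 of 12 H4 promoters. AAACACA was in 6.25% of all promoters, and in 5 of 6 H1, 2 of 18 H2A, 2 of 17 H2B, 0 of 10 H3 and 0 of 12 H4 promoters. The 4 H2A genes with an octamer were H2ac4, H2ac1, H2ac20 and H2ac12, whose mean ratios of -0.02, 0.0028, 0.16 and 0.17 did not pass the test. A match is a description of letters and not of a bound site.

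Of the 40 genes, 38 could be tested. H2ac21 and H1f6, the latter a linker histone of the testis, were not well above background in either group by the filter used. Each histone probe had 4 spots on each array, 176 in all, of which 0 (female pair) and 1 (male pair) were left out, and 0 spots were saturated. A probe of a histone gene may also take up cRNA of its near-identical copies, since members of a class share much of their coding sequence and no probe sequences were used here. Values are therefore those of a probe named after 1 gene, and levels of different probes are not compared as amounts of RNA. Levels are log2 intensities after normalization, and ratios are log2 differences between the labelled knockout and the control RNA of the same array.

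At an adjusted p under 0.05 (limma, over 20629 genes), 13 of 38 histone genes fell and 0 rose, where 1.81% of all tested genes fell, 1.87% rose and 3.68% changed in either direction. In both pairs 25 histone genes were lower and 5 higher, beside 28.2% of all genes lower and 27.6% higher in both pairs. At an unadjusted p under 0.05 in limma, 20 were lower and 0 higher, beside 6.55% and 7.58% of all tested genes. Both labelled knockout levels lay below both control levels in 20 of 38 histone genes, and in 17.7% of all tested genes. The median log2 ratio of the 38 was -0.18 ± 0.074 (SD, n = 2 pairs), with -0.13 for the females and -0.23 for the males, and the median of all tested genes was -0.0021. Since the family was taken up with these ratios known, nothing is read from these counts, and no test of the family as a whole was made.

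**Figure D1:**
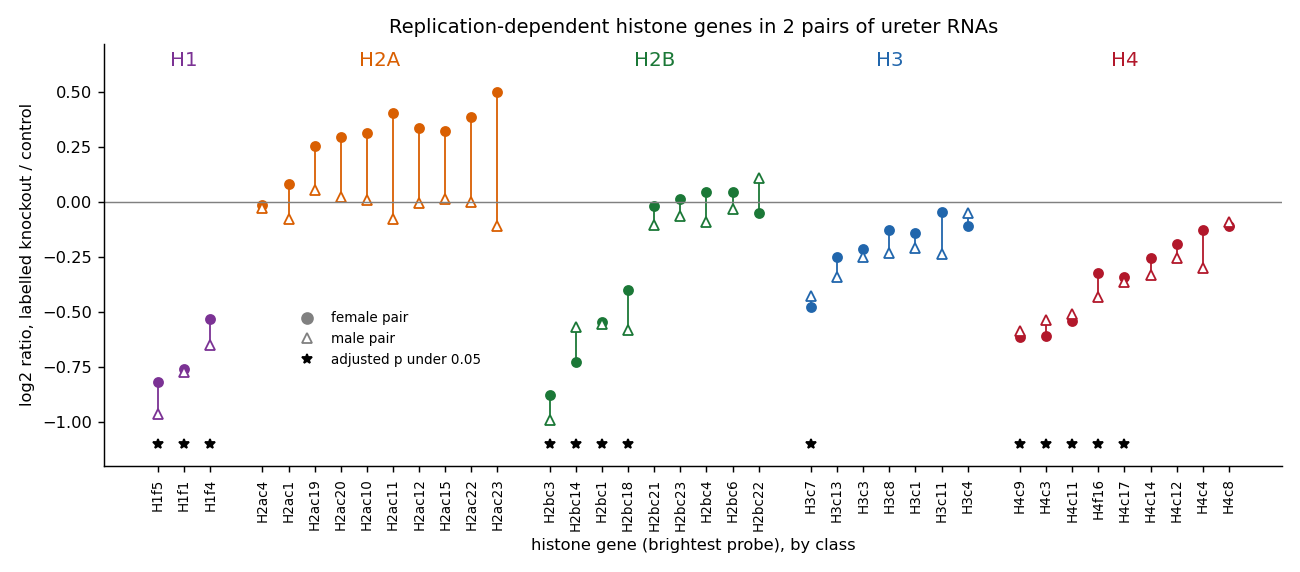
Log2 ratio of labelled knockout over control (vertical axis) of the brightest probe of each of 38 tested histone genes, by class (horizontal axis), with filled circles for the female pair, open triangles for the male pair and stars for an adjusted p under 0.05 in limma. The 3 H1 genes and 9 H4 genes lie below 0 in both pairs, while most H2A genes are above 0 in the female pair and near 0 in the male pair, a male-pair position that changes with the normalization.

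The classes differed in their values. The median log2 ratio was -0.77 for 3 H1 genes, -0.35 for 9 H4 genes, -0.18 for 7 H3 genes, -0.061 for 9 H2B genes and 0.16 for 10 H2A genes. All H1, H3 and H4 genes were lower in both pairs, while 5 of 9 H2B genes and 1 of 10 H2A genes were. The genes that fell numbered 3 of 3 in H1, 5 of 9 in H4, 4 of 9 in H2B, 1 of 7 in H3 and 0 of 10 in H2A. The medians of H1, H2B, H3 and H4 were below 0 and that of H2A above 0 under every normalization tried. The H2A median of the male pair alone was -0.0014, and it was 0.089 with the processed signals, 0.062 with the deposited table and -0.32 with median centring. The difference between classes was not tested.

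The linker histones H1f5, H1f1 and H1f4 (formerly Hist1h1b, Hist1h1a and Hist1h1e) all fell. H1f5 had log2 levels of 10.34 in the female and 10.01 in the male control, and 9.52 and 9.05 in the female and male ureters labelled knockout. Both labelled knockout RNAs lay below both controls, by a log2 ratio of -0.89 ± 0.10 (SD, n = 2 pairs, limma adjusted p = 0.0018). H1f1 had levels of 9.89 and 9.67 in the female and male controls and of 9.13 and 8.90 in the labelled knockouts. The groups did not overlap, and the ratio of -0.77 ± 0.0085 (SD, n = 2 pairs, limma adjusted p = 0.0024) was nearly the same in both pairs. H1f4 was the least changed of the 3 tested linker histones. Its levels were 10.69 and 10.47 in the controls against 10.16 and 9.82 in the labelled knockouts, again without overlap, and its ratio was -0.59 ± 0.083 (SD, n = 2 pairs, limma adjusted p = 0.0084). That call ended with median centring in place of loess (ratio -0.56, adjusted p = 0.07) and with the deposited table (-0.58, adjusted p = 0.062), while H1f5 and H1f1 kept theirs under all 10 alternatives with a test. H1f6 could not be tested, and H1f2 and H1f3 had no probe in the set.

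The H2B class split in its values. H2bc3 (formerly Hist1h2bb), a core histone H2B gene, had the lowest ratio of the family. Its log2 levels were 11.31 in the female control, 11.08 in the male control, 10.43 in the female labelled knockout and 10.09 in the male labelled knockout. The groups did not overlap, and the ratio was -0.94 ± 0.081 (SD, n = 2 pairs, limma adjusted p = 0.0014), a call kept under all 10 alternatives with a test. H2bc14 (Hist1h2bm) had levels of 15.33 and 15.03 in the female and male controls and of 14.60 and 14.47 in the labelled knockouts, with a ratio of -0.65 ± 0.11 (limma adjusted p = 0.0071). H2bc1 (Hist1h2ba), named as the testis form of H2B, had levels of 14.44 and 14.25 in the controls and 13.89 and 13.70 in the labelled knockouts. Its ratio was -0.55 ± 0.0069 (SD, n = 2 pairs, limma adjusted p = 0.0087). The H2bc1 probe was at the 87.9 percentile of brightness, and whether it reads that gene or other H2B copies was not checked. In H2bc14 and H2bc1 the labelled knockouts lay below both controls. H2bc18 (Hist2h2bb) of the Hist2 cluster had levels of 9.45 and 9.14 in the controls and 9.05 and 8.56 in the labelled knockouts, with a ratio of -0.49 ± 0.13 (limma adjusted p = 0.021). The calls of H2bc14, H2bc1 and H2bc18 ended with median centring (adjusted p = 0.053, 0.090 and 0.12) and with the deposited table (adjusted p = 0.068, 0.065 and 0.062), and that of H2bc18 also with the processed signals (adjusted p = 0.068).

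The other 5 H2B genes did not pass, and their mean ratios ran from -0.061 to 0.029. H2bc21 (Hist2h2be) was at -0.017 (female pair) and -0.10 (male pair). H2bc4 (Hist1h2bc) had levels of 12.72 and 12.86 in the female and male controls and 12.76 and 12.77 in the labelled knockouts, so the groups overlapped and the ratio was -0.02 ± 0.097 (SD, n = 2 pairs, limma adjusted p = 0.98). H2bc6 (Hist1h2be) was at 0.045 and -0.031, H2bc23 (Hist1h2bq) at 0.016 and -0.064, and H2bc22 (Hist1h2bp) at -0.051 and 0.11 in the female and male pairs. The annotation separates these genes in another way. H2bc4, H2bc6, H2bc22 and H2bc23 are the 4 tested histone genes with more than 1 RefSeq transcript, and their median ratio was -0.0067. The probes of H2bc6, H2bc22 and H2bc23 were dim, at the 48.7, 40.4 and 42.7 percentile of brightness, and that of H2bc4 was at 78.1. The other 5 H2B genes have 1 transcript each, 4 of these fell, and their median was -0.55. The probes of these 5 lay between the 51.8 (H2bc18) and 92.3 (H2bc14) percentile, so the split also runs along brightness except for H2bc4. All 4 genes with more than 1 transcript are H2B genes, so the split exists within that class alone. Over the whole family, 34 tested genes with 1 transcript had a median of -0.22 and included all 13 that fell. They also included all 10 H2A genes (median 0.16, 0 fell) and all 7 H3 genes, of which 1 fell. This split was looked at after the ratios were known and has no test, and the part of low signal in it was not tested.

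In the H4 class 5 of 9 genes fell. H4c9 (Hist1h4i) had log2 levels of 12.90 and 12.80 in the female and male controls and of 12.29 and 12.21 in the labelled knockouts, with a ratio of -0.60 ± 0.017 (SD, n = 2 pairs, limma adjusted p = 0.0064). H4c3 (Hist1h4c) had levels of 10.57 and 10.23 in the controls and 9.96 and 9.69 in the labelled knockouts, with a ratio of -0.57 ± 0.05 (limma adjusted p = 0.0082). H4c11 (Hist1h4j) had levels of 10.57 and 10.40 in the controls and 10.03 and 9.89 in the labelled knockouts, with a ratio of -0.52 ± 0.022 (limma adjusted p = 0.01). In these genes, which all encode the same H4 protein, both labelled knockouts lay below both controls, and the female and male pairs differed little. H4f16 (Hist4h4), the only member outside the Hist1 and Hist2 clusters with a probe, had levels of 10.75 and 10.73 in the controls and 10.42 and 10.29 in the labelled knockouts, with a ratio of -0.38 ± 0.077 (limma adjusted p = 0.04). H4c17 (Hist1h4m) had levels of 9.69 and 9.55 against 9.35 and 9.19 and a ratio of -0.35 ± 0.016 (limma adjusted p = 0.043). These 5 calls ended with median centring (adjusted p from 0.080 to 0.35) and with the deposited table (0.051 to 0.13). Those of H4f16 and H4c17 also ended with the processed signals (0.095 and 0.086), and that of H4c17 with outlier spots kept (0.052).

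The remaining H4 genes were lower in both pairs without passing. H4c14 (Hist2h4), just outside the threshold, had levels of 13.23 and 13.08 in the female and male controls and of 12.98 and 12.75 in the labelled knockouts, without overlap, and a ratio of -0.29 ± 0.056 (SD, n = 2 pairs, limma adjusted p = 0.085). H4c12 (Hist1h4k) was at -0.22, H4c4 (Hist1h4d) at -0.21 and H4c8 (Hist1h4h) at -0.099. Of these, 3 genes had a second, dimmer probe with a lower ratio than the brighter probe used, at -0.88 for H4c14, -0.54 for H4c12 and -0.46 for H4c4. All probes of these genes pointed the same way in both pairs. With the mean of a gene's probes in place of the brightest, H4c14 (ratio -0.58, adjusted p = 0.007) and H4c12 (-0.38, adjusted p = 0.032) passed the limma test as well, and 15 histone genes fell.

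**Figure D2:**
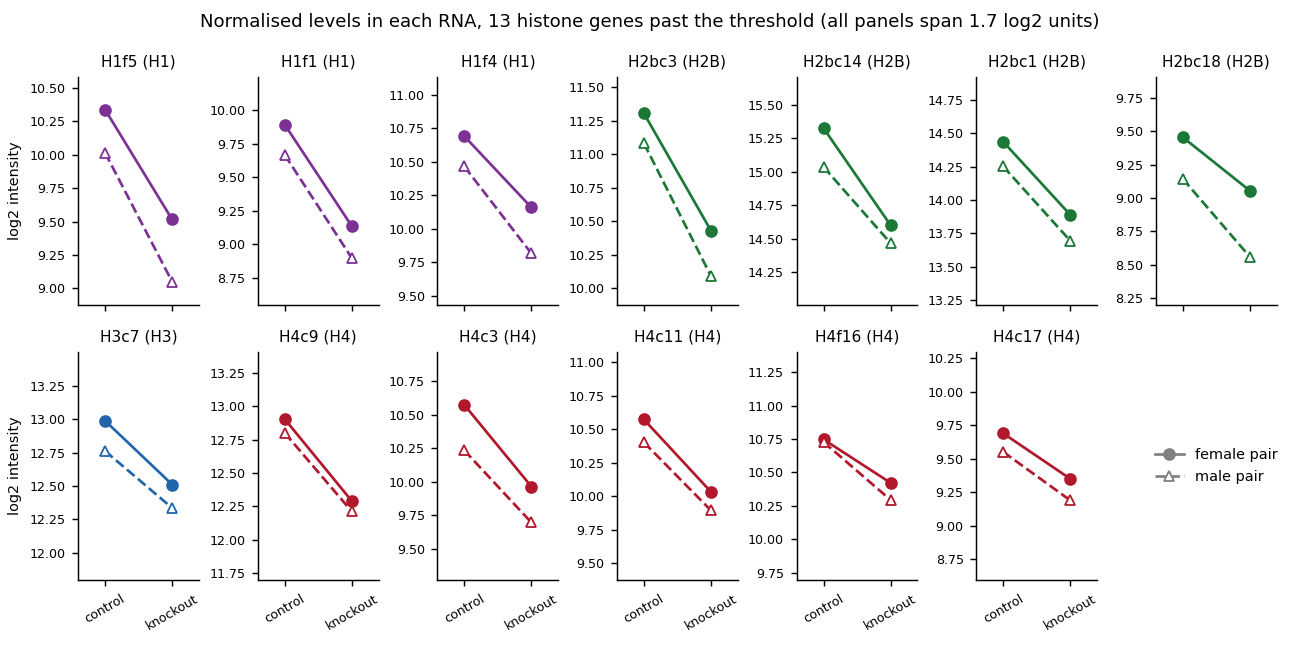
Normalized log2 intensity (vertical axis, each panel spanning the same range) in the control and labelled knockout RNA of each pair for 13 histone genes that passed the threshold, with filled circles and solid lines for the female pair and open triangles and dashed lines for the male pair. In each panel both labelled knockout RNAs lie below both controls, as for H2bc3 at 10.43 and 10.09 against 11.31 and 11.08.

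The H3 genes were lower in both pairs in all 7 cases, by less than the H1 genes. H3c7 (Hist1h3f) alone passed. Its log2 levels were 12.99 and 12.76 in the female and male controls and 12.51 and 12.34 in the labelled knockouts, without overlap, and its ratio was -0.45 ± 0.036 (SD, n = 2 pairs, limma adjusted p = 0.018). That call ended with the processed signals (adjusted p = 0.064), median centring (0.21) and the deposited table (0.11). H3c13 (Hist2h3b) had levels of 11.48 and 11.35 in the controls and 11.23 and 11.01 in the labelled knockouts and lay just outside the threshold, at -0.29 ± 0.064 (SD, n = 2 pairs, limma adjusted p = 0.086). H3c3 (Hist1h3c) was at -0.23, H3c8 (Hist1h3g) at -0.18, H3c1 (Hist1h3a) at -0.17 and H3c11 (Hist1h3i) at -0.14. H3c4 (Hist1h3d), the brightest H3 probe, had levels of 16.83 and 16.77 in the controls and 16.72 and 16.72 in the labelled knockouts. Its ratio of -0.08 ± 0.04 (SD, n = 2 pairs, limma adjusted p = 0.77) was the nearest to 0 of the class. With median centring, and likewise with the deposited table, 6 of 7 H3 genes were lower in both pairs.

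No H2A gene passed in any setting tried, and most H2A probes were among the brightest of the arrays. Of 10 tested, 8 had probes between the 99.2 and 99.9 percentile of brightness on the arrays, with log2 levels from 17.24 to 18.09. H2ac23 (Hist1h2ao), the brightest, had levels of 17.59 in the female control, 18.09 in the female labelled knockout, 17.89 in the male control and 17.79 in the male labelled knockout. The labelled knockout was the higher RNA in the female pair and the lower in the male pair, and the mean ratio was 0.20 ± 0.43 (SD, n = 2 pairs, limma adjusted p = 0.69). H2ac12 (Hist1h2ah) had levels of 17.60 and 17.94 in the female control and labelled knockout and of 17.70 and 17.70 in the male pair, a ratio of 0.17 ± 0.24 (limma adjusted p = 0.56). H2ac22 (Hist1h2an) was at 0.39 (female pair) and 0.0026 (male pair), and H2ac11 (Hist1h2ag) at 0.40 and -0.076. H2ac15 (Hist1h2ak) was at 0.32 and 0.014, H2ac10 (Hist1h2af) at 0.32 and 0.011, and the Hist2 genes H2ac20 (Hist2h2ac) and H2ac19 (Hist2h2aa2) at 0.30 and 0.023 and at 0.26 and 0.057. The 8 thus ranged from 0.26 to 0.50 in the female pair and from -0.11 to 0.057 in the male pair. Both labelled knockout levels lay above both controls in 5 of them, H2ac10, H2ac15, H2ac19, H2ac20 and H2ac22, as in 17.9% of all tested genes. In H2ac22 the male labelled knockout was only 0.0026 above the male control.

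Bright genes outside the family also had unlike medians in the 2 pairs. The 279 such genes, with probes at least as bright as the dimmest of the 8, had a median of 0.13 in the female pair. Their median was -0.097 in the male pair and 0.021 in the mean, and 2 of them were called. The 8 H2A probes had medians of 0.33, 0.0069 and 0.17 on the same measures. With median centring, which leaves the intensity trend of each array in place, the median of all 10 H2A genes was 0.78 (female pair) and -0.32 (male pair). With the scanner software's processed signals the corresponding medians were 0.21 and 0.089. The part of brightness in the H2A values was not tested. H2aj, a polyadenylated H2A variant with an equally bright probe, was at 0.27 and 0.017 in the same order of pairs. The other 2 H2A genes had dimmer probes and lay near 0. H2ac4 (Hist1h2ab) was at -0.015 and -0.025, with a mean ratio that turned to 0.011 with median centring, and H2ac1 (Hist1h2aa), the testis form of H2A, at 0.082 and -0.077. A second, dimmer probe of H2ac15 had 0.047 (female pair) and 0.25 (male pair), the reverse order of the brighter probe.

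**Figure D3:**
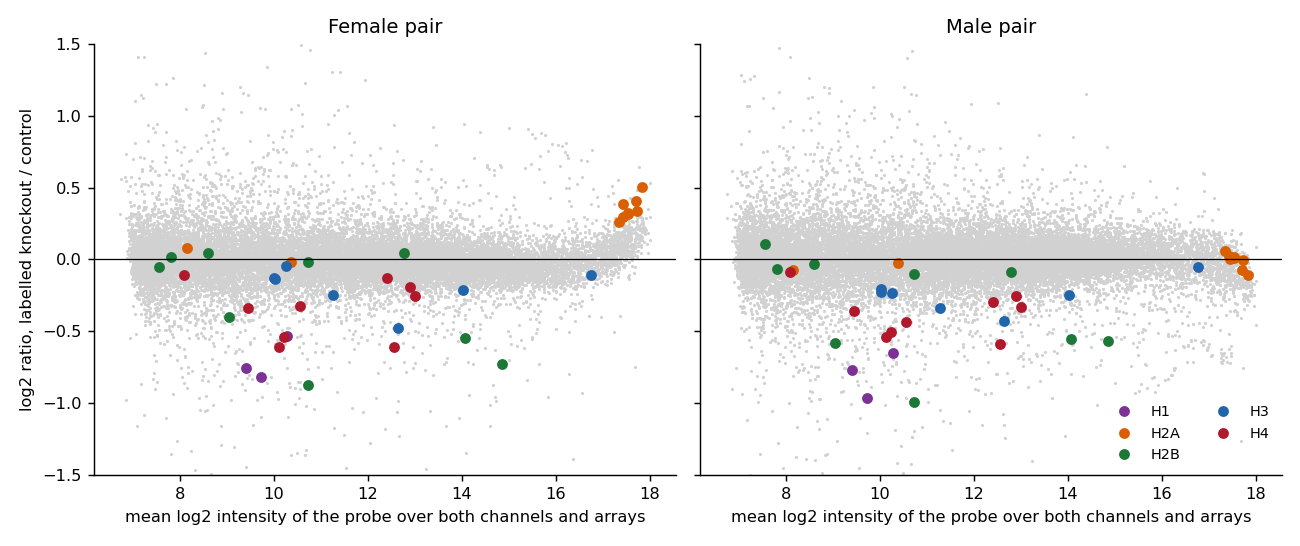
Log2 ratio of labelled knockout over control (vertical axis, without the few genes beyond its limits) against the mean log2 intensity of the probe (horizontal axis), 1 panel per pair, with all tested genes in grey and histone classes in colour. The 8 bright H2A probes sit at the right edge, at 0.26 to 0.50 in the female pair and -0.11 to 0.057 in the male pair, where other genes also lie above 0 in the female pair and below 0 in the male pair, and the male-pair values turn with the normalization.

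By cluster, the 31 tested genes of Hist1 on chromosome 13 had a median log2 ratio of -0.17, and 11 fell. The 6 genes of Hist2 on chromosome 3 had a median of -0.18, and H2bc18 fell. H4f16, on chromosome 6, was the single Hist4 gene, and Hist3 had no probe. Neighbours within Hist1 had unlike values. In the gene order of the RefSeq table, the tested histone genes H2bc14, H4c11, H4c12, H2ac15, H1f5, H3c11 and H2ac22 follow each other with ratios of -0.65, -0.52, -0.22, 0.17, -0.89, -0.14 and 0.20. H2bc3 at -0.94 is next in that order to H2ac4 at -0.02. Among genes with a promoter entry, which leaves out H2bc4 and H2bc21, 3 tested head-to-head couples of an H2A and an H2B gene had overlapping promoter windows. The H2A gene had the higher mean ratio in each, but in the male pair alone it had the lower one in 2 of the 3. H2bc1 and H2ac1, with 281 bases between their starts, had means of -0.55 and 0.0028, and -0.56 and -0.077 in the male pair. Whether the probe of H2bc1 reads that gene alone was not checked. H2bc22 and H2ac22, with 240 bases, had means of 0.029 and 0.20, and 0.11 and 0.0026 in the male pair. H2bc23 and H2ac23, with 168 bases, had means of -0.024 and 0.20, and -0.064 and -0.11 in the male pair. Within Hist2 the ratios went from -0.49 for H2bc18 through -0.29 for H3c13 and H4c14 and -0.061 for H2bc21 to 0.16 for H2ac19 and H2ac20.

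Other genes of the cell cycle and of histone handling are given for comparison. Over all tested genes 3.68% passed in either direction, so lists this short may hold 0 called genes without differing from that share. Of 26 tested genes of S phase and DNA replication, 0 rose and 0 fell, with a median log2 ratio of -0.072 that was below 0 in both pairs (-0.079 and -0.051). Cdc6, a replication licensing gene, and Gmnn were at -0.18 each (limma adjusted p = 0.45 and 0.38). Of 14 tested genes of G2 and mitosis, 0 passed in either direction, and the median was 0.029. Cenpf, a kinetochore protein, and Top2a, the topoisomerase of dividing cells, were at 0.13 each (limma adjusted p = 0.47 for both). The lists were chosen with earlier results of these arrays known, and whether the histone values differ from those of the lists was not tested.

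Of 28 tested genes of histone mRNA 3′ end processing and decay, 0 passed, with a median of -0.0097. Slbp, whose product binds the histone stem-loop, had log2 levels of 14.87 and 14.92 in the female and male controls and of 14.80 and 14.95 in the labelled knockouts, which overlap, and a ratio of -0.02 (limma adjusted p = 0.98). Snrpd3, an Sm protein, was at 0.32 (limma adjusted p = 0.062) and Zfp473, a zinc finger protein of the U7 snRNP pathway, at -0.16 (limma adjusted p = 0.50). Npat, the coactivator of histone gene transcription, was not well above background. Of 22 histone chaperones 0 passed, with a median of -0.0012, and the largest sizes were 0.19 for Asf1a and -0.097 for Chaf1b, a subunit of the chromatin assembly factor CAF-1. The replication-independent histone variants, which are polyadenylated as a rule, had 0 of 11 past the threshold and a median of -0.058. H2aj was at 0.14 and H3f3b, one of the H3.3 genes, at -0.14 (limma adjusted p = 0.56 and 0.45).

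The amplification kit given by the labels starts from an oligo(dT) primer, so that transcripts without a poly(A) tail reach the array through internal priming or minor polyadenylated forms. A list of 7 measured RNAs outside the histones was taken for lacking a canonical poly(A) tail in at least 1 form. Which form each probe measures was not checked. Of these, 1 fell and 0 rose, beside 1.81% and 1.87% of all tested genes, and the median log2 ratio was -0.086. Rmrp, the RNA of the mitochondrial RNA processing ribonuclease, fell, at -0.35 (female pair), -0.66 (male pair) and -0.50 in the mean (limma adjusted p = 0.038). Snora74a was at -0.25, Malat1 at -0.19, Rnu12 at -0.086, Snora47 at -0.084, Terc at 0.025 and Neat1 at 0.19, and these did not pass. The part of priming in the histone ratios was not tested.

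**Figure D4:**
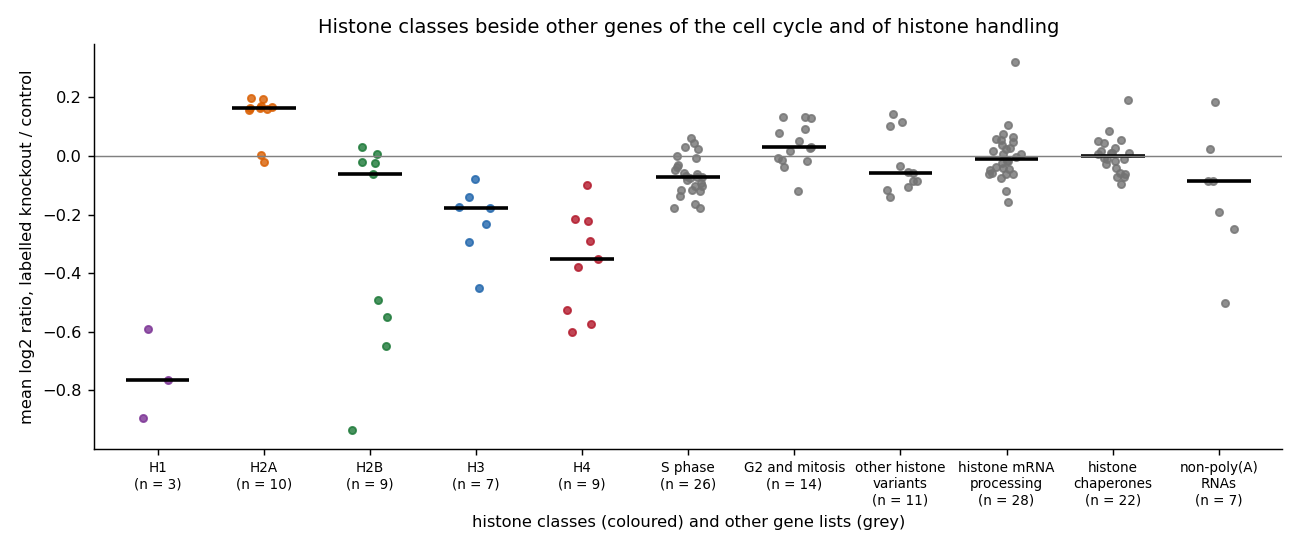
Mean log2 ratio of labelled knockout over control over the 2 pairs (vertical axis) for each tested gene of 5 histone classes in colour and 6 comparison lists in grey (horizontal axis), with a bar at each median. H1 has a median of -0.77, H4 of -0.35, H3 of -0.18 and H2B of -0.061. The medians of the comparison lists run from -0.086 to 0.029, a range that includes the H2B median. The H2A median of 0.16 stays above 0 under every normalization tried although its male-pair median changes sign.

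Cell type markers moved in the same RNAs. Their counts past the threshold stand beside 3.68% of all tested genes in either direction. Smooth muscle markers fell in 6 of 8 cases, with a median of -2.83, and their summed level (log2 of the summed intensities) went from 17.60 and 17.94 in the female and male controls to 15.85 and 15.84 in the labelled knockouts. Markers of glia and autonomic neurons had a median of 0.42 with 3 of 7 past the threshold and higher, among them Fabp7 at 0.71 and Prph at 0.69, and a summed level from 15.46 to 15.58 over the 4 RNAs. Of 6 ureteric mesenchyme markers 1 rose and 1 fell, Osr1 at 0.43 and Foxf1 at -0.49, with a median of -0.086. Of 12 urothelial markers 0 passed, with a median of -0.041 and summed levels from 17.61 to 17.79, and all 12 were well above background. Erythroid markers (median 0.30, 0 of 6 past the threshold) had summed levels of 18.64 and 18.96 in the controls and 19.22 and 18.99 in the labelled knockouts. Immune (0.20, 0 of 7), endothelial (0.15, 0 of 7) and nephron markers (0.041, 0 of 5 tested) did not pass, and Nphs1 was the only marker not well above background. The nephron markers Six2 (-0.34 and 1.11) and Wt1 (-0.032 and 0.79) differed between the female and male pairs. Cited1, Lhx1 and Pax2 lay between -0.071 and 0.14 in both. Summed nephron levels were 13.137 and 12.942 in the female and male controls and 13.072 and 13.355 in the labelled knockouts. Markers of other lists also differed between the female and male pairs, such as endothelial Egfl7 (-0.20 and 0.85) and mesenchymal Sox9 (0.24 and -0.46). Summed endothelial levels were 16.498 and 16.470 in the female and male controls and 16.557 and 16.844 in the labelled knockouts. In tissue RNA, fewer cells of a type and less RNA per cell cannot be told apart, and the part of these shifts in the histone values was not tested.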

How the data were processed

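The submitters' processing notes name Agilent Feature Extraction 10.7.3.1. The deposited scanner files give spot and local background intensity in 2 channels, other flags of spot quality, and processed intensities, background-subtracted and LOWESS dye-normalized, per the file headers. The deposited value table gives 1 score per probe and array, a signed fold with no value between -1 and 1. Its making was not given in the sources used here. Its log2 values had correlations of 0.903 and 0.915 with the log2 ratios computed here for the female and male array over the probes kept. Its floor and its centring are unknown.

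Mean intensities were corrected by normexp (offset 50) and loess within each array, with control spots at weight 0. Non-uniform spots (186 and 223) were left out and 4 spots per probe averaged. In the green channel 70.8% and 71.6% of spots, and in the red 66.9% and 64.3%, were well above background. A probe was kept if, on both arrays, over 0.5 of its spots were well above background for the knockout RNA, or on both for the control RNA, as 25934 of 39396 were. Accessions were named through RefSeq (GRCm38.p6), which matched 28328 probes, while 11101 kept their accession. The brightest probe stood for a gene. Levels were put on a common scale by quantile normalization of mean intensities between arrays, which leaves each ratio unchanged.

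Testing used limma 3.58.1 (lmFit and eBayes) in R 4.3.3 and Benjamini-Hochberg adjustment over 20629 genes. With residual and prior degrees of freedom of 1 and 5.24, most of the spread behind a p-value is that pooled across genes. The members and lists were chosen with earlier results of these data known. Named were all histone genes past the threshold, the 2 brightest, highest and lowest of each class, genes with probes of opposite direction, genes outside Hist1, and of each list the members past the threshold (at most 4) or the 2 of largest size. Other members are also given, as a description. Tried as alternatives were the processed signals, no background subtraction, median pixels, the deposited table, median centring, other filters, outlier spots kept, the mean of probes, robust eBayes, other thresholds and each replicate left out.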

Additional observations from a re-analysis of the deposited data

Results flagged for a closer look

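In 8 of 38 tested histone genes the female and the male pair lay on opposite sides of 0, as did 44.2% of all tested genes. The difference was not tested, since each sex has 1 pair and the dyes were exchanged with the sex. Among H2A genes, the log2 ratio of the male pair minus that of the female pair was -0.61 for H2ac23 (0.50 for the female pair, -0.11 for the male pair). It was -0.48 for H2ac11 (0.40 and -0.076), -0.34 for H2ac12 (0.34 and -0.0054) and -0.16 for H2ac1 (0.082 and -0.077). Among H2B genes it was 0.16 for H2bc22 (-0.051 and 0.11), -0.14 for H2bc4 (0.048 and -0.089), -0.0803 for H2bc23 (0.016 and -0.064) and -0.075 for H2bc6 (0.045 and -0.031). No H1, H3 or H4 gene had pairs of opposite sign, under the processing described above.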

How the results depend on the processing

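Over all tested genes, 463 passed with the processed signals, 242 with median centring, 285 with the deposited table, 315 at an adjusted p under 0.01 and 1150 under 0.10, in place of 759. Histone genes that fell numbered 13, and 3 with median centring, 3 with the deposited table and 8 at an adjusted p under 0.01, with 0 rising in each. H1f1, H1f5 and H2bc3 kept their calls under all 10 alternatives with a test, the other 10 lost theirs under 1 or more, and 0 changed sign. Other filters, outlier spots kept, the mean of probes and robust eBayes left the ratios of H1f1, H1f5 and H2bc3 as they were. For these genes those alternatives could change only the p-value. The median of the family was -0.29 without the H2A genes, an alternative chosen after seeing the data, and between -0.23 and -0.13 with either replicate left out, which gives a value with no test. The test is paired by construction, since each ratio is taken within an array, and no fit without the pairing was made. With 2 arrays every value is imprecise, and probes near background give only imprecise ratios.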
